A study of Rattus norvegicus with 6 samples.

Results

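The 10 genes described here encode ligands and receptors of the vascular endothelial growth factor (VEGF) and platelet-derived growth factor (PDGF) families. They were listed by symbol, at a time when earlier results of these data were known. They are the VEGF ligands Vegfa, Vegfb, Vegfc, Vegfd and Pgf, the PDGF ligand Pdgfa, the PDGF receptors Pdgfra and Pdgfrb, and the co-receptors Nrp1 and Nrp2. All 10 were among the 20264 gene rows of the count table, and all 10 were among the 11426 genes that passed the filter on low counts and were tested.

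VEGF ligands bind receptor tyrosine kinases of the Flt1, Kdr and Flt4 group, which are best known on blood and lymphatic endothelium. PDGF ligands are dimers that bind Pdgfra and Pdgfrb on mesenchymal cells and drive their proliferation and migration. Neuropilins bind both VEGF ligands and class III semaphorins and pass the signal on through a VEGF receptor or a plexin. The nucleus pulposus is the gel-like core of the intervertebral disc. It is largely avascular in health, and vessel ingrowth is a known feature of disc degeneration.

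The cells were primary nucleus pulposus cells (NPCs) that had been isolated from the caudal discs of wild-type male Sprague-Dawley rats and cultured in serum-containing medium. Both groups received tert-butyl hydroperoxide (TBHP), an oxidant used here to induce senescence, and the TBHP+FGF21 group also received recombinant fibroblast growth factor 21, with 3 libraries in each group. The labels state no dose, time or animal age for the sequenced cells, and no group without TBHP was among these libraries, so every difference below is between the 2 TBHP-treated groups. The treatment label names FGF21 in only 1 of the 3 TBHP+FGF21 libraries (replicate 1), while the labels of replicates 2 and 3 read FGF22 and FGF23, and the series' design text gives FGF21 for the whole group.

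The libraries held 18277732 to 22426190 counts assigned to genes. At this depth 3 counts corresponded to 0.131 to 0.168 CPM, the usual count per library total with TMM scaling, and the smallest counts below are given with exact Poisson intervals that cover counting error only. The cultures carried some nucleus pulposus markers, while others were at or near 0. Acan, the main disc proteoglycan, stood at 2506 to 4355 CPM, and the transcription factor genes Pax1 and Foxf1 were detected in every library, but the notochordal genes Tbxt and Shh had 0 counts in all 6 libraries and Col2a1 had 9 to 14 counts. The endothelial genes Kdr, Cdh5, Tie1, Emcn and Robo4 and the leukocyte genes Ptprc, Adgre1 and Cd163 were also listed at 0 throughout. A listed 0 does not by itself show absence, since Col1a2, which is transcribed with Col1a1 in collagen-producing cells, had 7 to 17 counts beside 639245 to 862314 for Col1a1. In bulk RNA, fewer cells of a type and less RNA per cell cannot be told apart.

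Of the 6 libraries, 1 stood apart from its label. Across all 11426 tested genes the log2 CPM of TBHP+FGF21 replicate 2 had a mean correlation of 0.993 with the TBHP libraries and of 0.987 with the other TBHP+FGF21 libraries, whereas replicate 1 had 0.988 and 0.991 and replicate 3 had 0.985 and 0.989. Among the TBHP libraries, replicates 1 and 2 had 0.9921 and 0.9924 with their own group and 0.988 and 0.9875 with TBHP+FGF21. TBHP replicate 3 had 0.991 with its own group and 0.9907 with TBHP+FGF21, about the same. Results are given with and without TBHP+FGF21 replicate 2, the 1 library closer to the other group. Without it, the group consists of the 2 libraries farther from TBHP, so the p-values of that fit describe those libraries and are not a test of the treatment. The removal of replicate 2 is 1 of 6 single removals that were computed, and why it stood apart was not tested.

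With all 6 libraries none of the 10 genes passed an adjusted p of 0.05 in edgeR's quasi-likelihood test, against 1 of 11426 genes (0.00875%). That 1 gene was Sirt1, named after its value was seen, and it was also the only row of whole counts whose 6 counts were not all found in the per-library files. There the TBHP libraries had 92, 138 and 125 counts in the row that shares Sirt1's TBHP+FGF21 counts, while the combined table gives 32, 38 and 35. The counts of each of the 10 VEGF and PDGF genes were identical in both sources. At an unadjusted p under 0.05, 3 of the 10 were counted: Vegfd and Pdgfra were higher in TBHP+FGF21 and Pdgfa was lower, against 8.92% of all genes (4.63% higher and 4.29% lower). Limma-voom, a second tool, also called 0 of the 10, and DESeq2 called Vegfd alone. Fold estimates were positive for 5 genes and negative for 5, with a median log2 fold change of 0.04 beside -0.01 for all genes, of which 48.9% were positive. The 2 groups overlapped for each of the 10 genes, whereas they did not overlap for 9.9% of all genes.

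**Figure D1:**
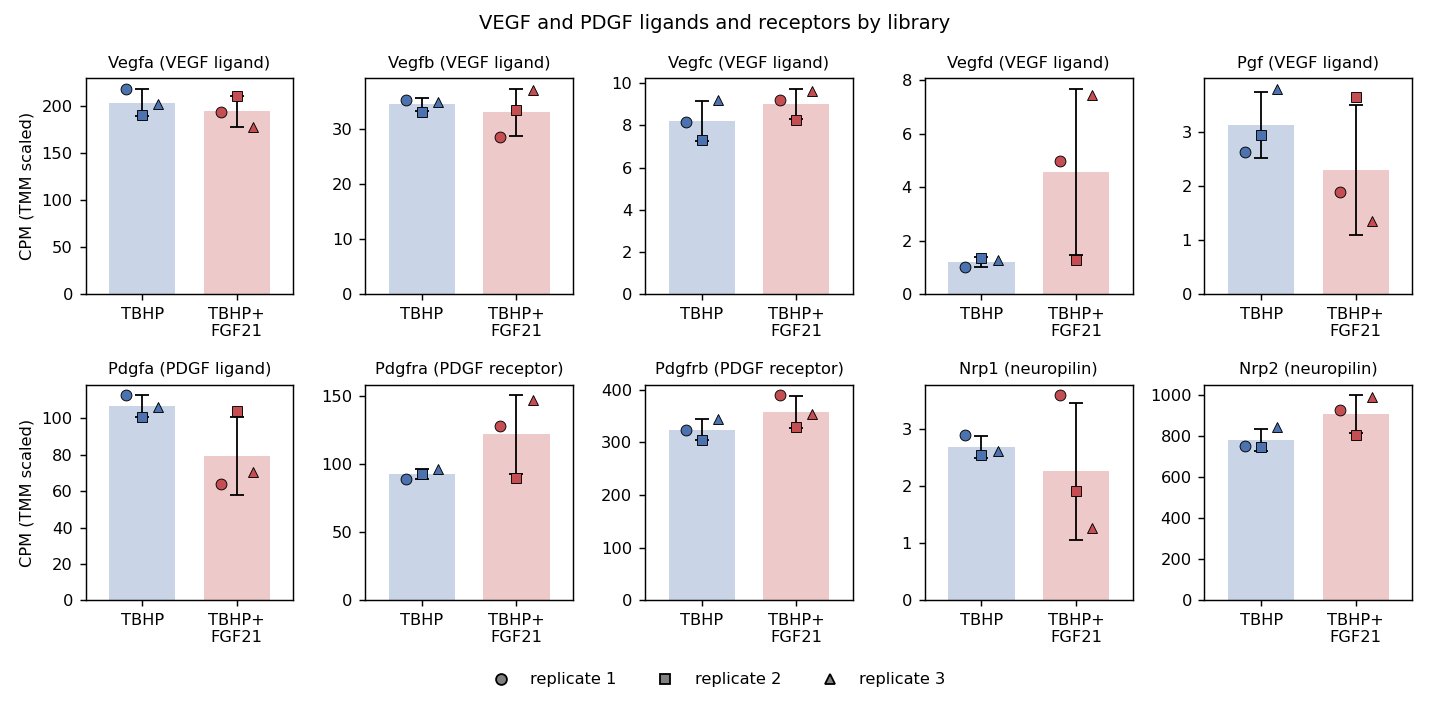
Level of each gene in CPM (y axis, TMM scaled, starting at 0) in the TBHP and TBHP+FGF21 groups. Bars are means and error bars are SD of 3 libraries, drawn as points with 1 marker shape per replicate number. For Vegfd, Pdgfa and Pdgfra the TBHP+FGF21 square (replicate 2) lies at the TBHP level and the circle and triangle lie away from it on the same side.

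Vegfd, a ligand of Flt4 known for lymphatic vessel growth, had the largest difference of the 10. It had 18, 30 and 27 counts in TBHP replicates 1, 2 and 3, with 95% intervals of 10.7 to 28.4, 20.2 to 42.8 and 17.8 to 39.3. In TBHP+FGF21 it had 105 (85.9 to 127), 27 (17.8 to 39.3) and 171 (146 to 199) counts. Replicates 1 and 3 were thus far above every TBHP library, and replicate 2 was among them. In CPM this was 1.21 ± 0.184 (SD, n = 3) in TBHP and 4.57 ± 3.1 in TBHP+FGF21. The log2 fold change was 1.91 (SE 0.485, 95% interval 0.85 to 2.97), or 3.76-fold, with an unadjusted p of 0.00198 and an adjusted p of 0.553 in edgeR. The exact permutation test of its log2 CPM gave p = 0.2, where 0.1 is the smallest p that 3 against 3 libraries allow. It ranked 17 among all genes by p, and of the 10 genes it alone had an absolute log2 fold change over 1 with an unadjusted p under 0.05, a rule met by 61 genes (0.534%). DESeq2 gave it a log2 fold change of 1.92 with an adjusted p of 0.0443. That test called 4 of 14882 genes (0.0269%), the others being Fos, Sik1 and Sirt1. This adjusted p is just under 0.05 and depends on the ranks of all genes, including the Sirt1 row whose TBHP counts differed between the sources. DESeq2 was not run without that row, so whether Vegfd would still pass was not tested. Without replicate 2 the log2 fold change was 2.36 (SE 0.253) with an adjusted p of 4.06e-05 in edgeR, and without replicate 3 it was 1.37 with an adjusted p of 0.973.

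The reads of Vegfd fell almost evenly on both strands, 191 against 187, so strand was not kept and the reads of each strand were a separate count of the same libraries. The log2 fold change was 1.78 on one strand and 2.06 on the other. Its proximal promoter is shown because it carried the largest difference. The 250 bases before the start of Vegfd (chrX:33739893-33740142, minus strand, RefSeq, build GRCr8) held a TATAAA box, in capitals, and none of the other motifs searched:
Vegfd: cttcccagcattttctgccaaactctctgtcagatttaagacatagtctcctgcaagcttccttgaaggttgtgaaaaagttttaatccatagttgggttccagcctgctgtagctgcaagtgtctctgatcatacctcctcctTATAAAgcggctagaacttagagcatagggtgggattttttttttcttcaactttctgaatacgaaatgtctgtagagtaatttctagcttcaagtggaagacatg
The window was 40.8% G and C, against a median of 51.2% over 33469 windows, and TATAAA occurred on either strand in 12.9% of them.

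The 3 genes whose log2 CPM followed that of Vegfd most closely over the 6 libraries, of 11426 genes, were Plat (Pearson r = 0.998), Matn2 (r = 0.997) and Lgr5 (r = 0.995). Plat encodes tissue plasminogen activator, Matn2 a matrilin of the extracellular matrix, and Lgr5 a receptor that binds R-spondins. These correlations describe 6 libraries that share the grouping, and with so many genes compared the best of them are high by selection. The log2 fold changes were 0.40 for Plat, 0.81 for Matn2 and 1.38 for Lgr5.

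Vegfa, the principal angiogenic ligand and a hypoxia-inducible gene, showed no detectable difference. It stood at 219, 191 and 202 CPM in TBHP and at 194, 211 and 178 CPM in TBHP+FGF21, so the groups overlapped. The means were 204 ± 14 and 195 ± 16.4 CPM, with a log2 fold change of -0.07 (95% interval -0.28 to 0.15, adjusted p = 0.814, edgeR). Vegfb, an Flt1 ligand linked to lipid handling, stood at 35.3, 33.1 and 34.9 CPM in TBHP and at 28.5, 33.4 and 37.1 CPM in TBHP+FGF21. The TBHP+FGF21 libraries lay on both sides of the TBHP libraries, and the log2 fold change of -0.06 (95% interval -0.30 to 0.18, adjusted p = 0.854, edgeR) changed sign when replicate 1 was left out. Vegfc, the other main Flt4 ligand, stood at 8.16, 7.30 and 9.19 CPM against 9.19, 8.23 and 9.64 CPM. Its log2 fold change was 0.14 (95% interval -0.18 to 0.45, adjusted p = 0.749, edgeR), and the gap between it and Vegfd was not itself tested.

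Pgf, placental growth factor, binds Flt1. It had 47, 65 and 81 counts in TBHP, and 40, 76 and 31 in TBHP+FGF21. The counting intervals of the lowest TBHP library (34.5 to 62.5) and the lowest TBHP+FGF21 library (21.1 to 44) overlapped. That TBHP+FGF21 interval did not overlap those of TBHP replicates 2 (50.2 to 82.8) and 3 (64.3 to 101). Within TBHP, the intervals of replicates 1 and 3 did not overlap either. Replicates 1 and 3 of TBHP+FGF21 were below the TBHP libraries and its replicate 2 was between them. In CPM the means were 3.12 ± 0.606 and 2.29 ± 1.19 (SD, n = 3), and the log2 fold change was -0.46 (SE 0.32, adjusted p = 0.63, edgeR). Without replicate 2 it was -0.94 (SE 0.273, adjusted p = 0.0432), and without replicate 3 it was -0.17 (adjusted p = 0.973).

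Pdgfa encodes the chain of PDGF-AA, a mitogen of mesenchymal cells, and had the smallest p of the 5 genes with negative estimates. It had 2022, 2227 and 2264 counts in TBHP and 1351, 2169 and 1614 in TBHP+FGF21. This was 113, 101 and 106 CPM against 64.0, 104 and 70.4 CPM. Replicates 1 and 3 were below all TBHP libraries by more than the spread within TBHP, and replicate 2 was among them. The means were 107 ± 6 and 79.4 ± 21.4 CPM, and the log2 fold change was -0.43 (SE 0.153, 95% interval -0.76 to -0.09), or 0.744-fold, with an unadjusted p of 0.0163 and an adjusted p of 0.553 in edgeR. The exact permutation p was 0.2. Without replicate 2 the log2 fold change was -0.66 (SE 0.104, adjusted p = 0.00102, edgeR), while without replicate 1 or 3 it was -0.28 or -0.34 with adjusted p of 0.916 and 0.973. Its upstream window (chr12:20759116-20759365, plus strand) held 1 GC box, GGGCGG, read from the opposite strand as the capitals show:
Pdgfa: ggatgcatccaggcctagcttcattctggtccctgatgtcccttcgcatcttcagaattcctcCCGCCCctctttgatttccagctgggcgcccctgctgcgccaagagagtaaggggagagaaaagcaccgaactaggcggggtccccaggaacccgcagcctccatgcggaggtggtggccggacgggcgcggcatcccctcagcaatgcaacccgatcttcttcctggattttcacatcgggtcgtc
The window was 60.8% G and C, and 30.5% of all windows held a GC box.

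Both PDGF receptor genes had estimates of the opposite sign to Pdgfa. Pdgfra, the receptor of PDGF-AA, had 1587, 2035 and 2057 counts in TBHP and 2699, 1878 and 3368 in TBHP+FGF21. In CPM this was 88.7, 92.3 and 96.4 against 128, 89.9 and 147. The TBHP libraries were within a narrow range, replicates 1 and 3 of TBHP+FGF21 were above it, and replicate 2 was inside it. The means were 92.4 ± 3.9 and 122 ± 29 CPM, and the log2 fold change was 0.39 (SE 0.147, 95% interval 0.07 to 0.72), or 1.31-fold, with an unadjusted p of 0.0199 and an adjusted p of 0.553 in edgeR. The exact permutation p was 0.3. Without replicate 2 it was 0.58 (SE 0.102, adjusted p = 0.00219), and without replicate 3 it was 0.24 (adjusted p = 0.973). Its upstream window (chr14:33408517-33408766, minus strand, 47.2% G and C) held an AP-1 motif, TGANTCA, in capitals:
Pdgfra: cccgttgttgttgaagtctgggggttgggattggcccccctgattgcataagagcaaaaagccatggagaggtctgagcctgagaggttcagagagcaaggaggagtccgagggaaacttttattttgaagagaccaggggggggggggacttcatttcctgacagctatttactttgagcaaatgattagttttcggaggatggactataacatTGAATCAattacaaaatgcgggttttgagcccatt
This motif occurred in 6.34% of all windows.

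Pdgfrb, the receptor typical of pericytes and other mesenchymal cells, stood at 324, 305 and 344 CPM in TBHP and at 390, 328 and 354 CPM in TBHP+FGF21. Its log2 fold change was 0.14 (SE 0.099, 95% interval -0.07 to 0.36, adjusted p = 0.628, edgeR), and without replicate 2 it was 0.21 with an adjusted p of 0.231. The change of Pdgfra relative to Pdgfrb was compared as a log2 ratio of counts within each library, which does not depend on library scaling. It was -1.81 ± 0.076 in TBHP and -1.58 ± 0.301 in TBHP+FGF21, a difference of 0.23 with an exact permutation p of 0.3. The log2 ratio of Pdgfa to Pdgfra was 0.35, 0.13 and 0.14 in TBHP and -0.998, 0.21 and -1.06 in TBHP+FGF21. The ratio was thus lower in replicates 1 and 3 than in every other library. The difference of -0.82 had an exact permutation p of 0.3, and the adjusted p over the 4 ratios compared was 0.533. The ratios compare counts of genes of unknown transcript length, so only their differences between libraries can be read. The log2 ratio of Vegfa to Vegfb was 2.56 in both groups (SD 0.058 and 0.263, exact permutation p = 1).

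The neuropilin genes had estimates of opposite sign. Nrp2, which binds Vegfc, Vegfd and the semaphorin Sema3f, stood at 751, 748 and 842 CPM in TBHP and at 927, 805 and 988 CPM in TBHP+FGF21. Replicates 1 and 3 were above every TBHP library and replicate 2 was between them. The log2 fold change was 0.22 (SE 0.105, 95% interval -0.01 to 0.45) with an adjusted p of 0.553, and without replicate 2 it was 0.30 with an adjusted p of 0.0867 in edgeR. Nrp1, the main neuropilin for Vegfa and Sema3a, had 52, 56 and 56 counts in TBHP and 76, 40 and 29 in TBHP+FGF21. The 3 TBHP+FGF21 counts lay on both sides of TBHP, and the intervals of the highest (59.9 to 95.1) and the lowest (19.4 to 41.6) did not overlap. The log2 fold change of -0.25 (95% interval -0.95 to 0.45, adjusted p = 0.785, edgeR) was 0.27 on one strand's reads and -0.75 on the other's, so the sign of the estimate depended on which reads were counted. The log2 ratio of Nrp1 to Nrp2 was -8.18 ± 0.156 in TBHP and -8.78 ± 0.802 in TBHP+FGF21 (difference -0.60, exact permutation p = 0.4, adjusted p = 0.533).

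**Figure D2:**
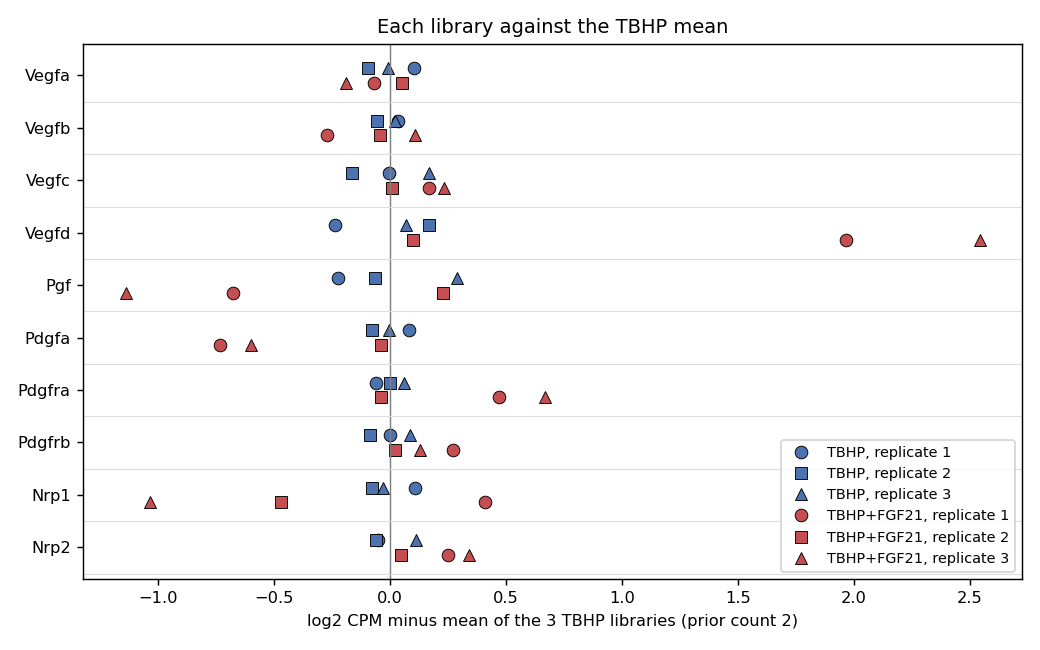
Log2 CPM of each library minus the mean of the 3 TBHP libraries (x axis, prior count 2) for each gene. The TBHP+FGF21 squares (replicate 2) lie at most 0.23 from the TBHP mean, at Pgf, except for Nrp1 at -0.47, while the circles and triangles of Vegfd lie at 1.97 and 2.54 and those of Pdgfa at -0.73 and -0.60.

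Without replicate 2, 4 of the 10 genes passed an adjusted p of 0.05: Vegfd and Pdgfra in the higher direction and Pdgfa and Pgf in the lower direction. In that fit 867 of 11559 genes passed (7.5%; 3.78% higher and 3.72% lower). At an unadjusted p under 0.05 it counted 5 of the 10, with Nrp2 the added gene, against 23.6% of all genes. With any other library left out instead, the adjusted p ranged from 0.241 to 0.982 for Vegfd, from 0.301 to 0.982 for Pdgfa, from 0.284 to 0.982 for Pdgfra and from 0.745 to 0.982 for Pgf. With replicate 1, the library labelled FGF21, as the only TBHP+FGF21 library, 3 of the 10 genes passed (Vegfd, Pdgfa and Pdgfra), against 325 of 11752 genes (2.77%), where that library is assumed to vary like the TBHP group.

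**Figure D3:**
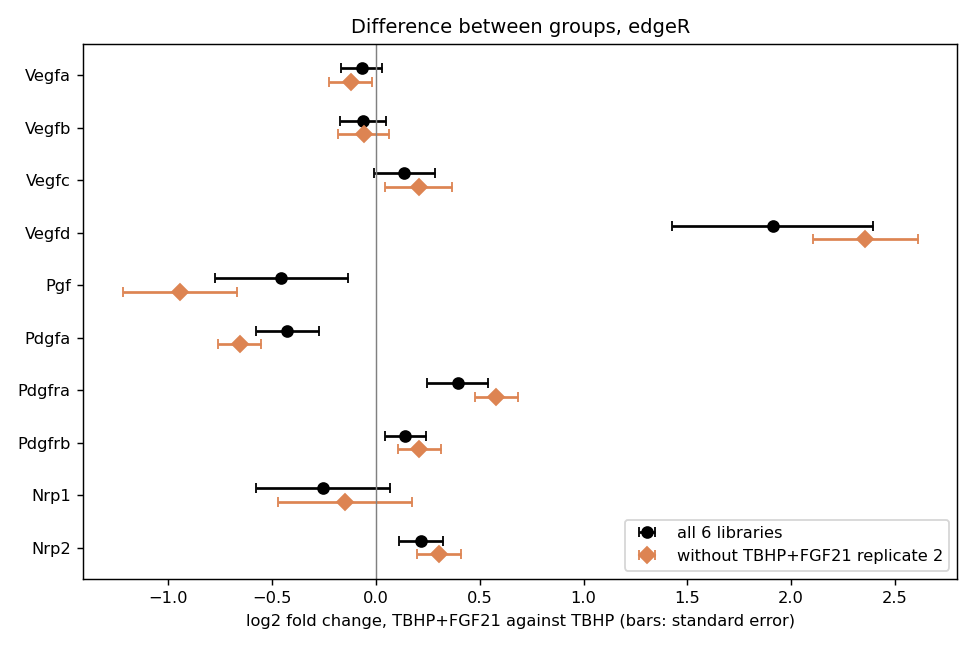
Log2 fold change of each gene, TBHP+FGF21 against TBHP, from edgeR (x axis) with all 6 libraries (black circles) and without TBHP+FGF21 replicate 2 (orange diamonds). Bars are standard errors; for Vegfd the estimates are 1.91 and 2.36, for Pgf -0.46 and -0.94.

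The promoters of the remaining genes did not share 1 motif. RefSeq entries matched 9 of the 10 genes, with 10 windows in all. The search covered AP-1 (TGANTCA), the cyclic AMP element (TGACGTCA), the hypoxia-inducible factor cores ACGTG and GCGTG, the FOXO core (GTAAACA), the GC box and TATAAA, on both strands. GC boxes lay in 1 of the 2 windows of Vegfa and in those of Vegfb, Vegfc, Pgf and Pdgfa, and GCGTG, present in 25.9% of all windows, lay in those of Vegfb, Pgf, Nrp1 and Nrp2. None of the 10 windows held ACGTG (16.6% of all windows), the cyclic AMP element (1.59%) or the FOXO core (3.21%). A match or its lack is a description of these letters in this window only.

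The remaining ligands and receptors of the families, a list of 7 genes, gave 4 that were tested and 0 with an unadjusted p under 0.05 in edgeR. Flt4, the receptor of Vegfc and Vegfd, stood at 189, 167 and 204 CPM in TBHP and at 203, 193 and 255 CPM in TBHP+FGF21 (log2 fold change 0.22, SE 0.121, adjusted p = 0.568). Pdgfc, a second Pdgfra ligand, stood at 58.3, 58.5 and 59.8 CPM against 71.3, 51.7 and 83.4 CPM. Its log2 fold change was 0.23 (SE 0.143, adjusted p = 0.597), and without replicate 2 it was 0.40 with an adjusted p of 0.0255 in edgeR. The Pdgfra ligands Pdgfa and Pdgfc thus had fold changes of opposite sign. Flt1 stood at 3.30, 4.90 and 4.78 CPM against 4.55, 4.98 and 6.15 CPM (adjusted p = 0.643), and the receptor-like gene Pdgfrl at 28.9, 29.0 and 35.4 CPM against 30.1, 28.1 and 22.4 CPM (adjusted p = 0.592). Pdgfd had 3 to 6 counts in every library and was not tested. Kdr, the main signalling receptor of Vegfa, and Pdgfb, the principal Pdgfrb ligand, were listed at 0 counts in all 6 libraries, which at 3 counts allows up to 0.131 to 0.168 CPM per library.

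Downstream of the receptors, 26 of 27 listed signal transducers were tested. Their log2 fold changes had a median of 0.01, with 15 positive and 11 negative. Map2k1, a kinase of the MAP kinase cascade, was lower without overlap between the groups (log2 fold change -0.24, unadjusted p = 0.0281, adjusted p = 0.553, edgeR). Plcg1, another listed transducer and named after its value was seen, was higher without overlap (log2 fold change 0.14, unadjusted p = 0.133, edgeR). Of all genes, 5% were lower and 4.9% higher without overlap. In a list of class III semaphorins, plexins and Gipc1, compiled around the neuropilins, 12 of 13 genes were tested. At an unadjusted p under 0.05, 5 were higher and 0 lower, where 4.63% of all genes were higher and 4.29% lower. Sema3f, an Nrp2 ligand, had a log2 fold change of 0.42 (SE 0.138, unadjusted p = 0.0102), from 182, 159 and 190 CPM to 241, 186 and 282 CPM. Plxna3 had 0.41 (SE 0.156, unadjusted p = 0.0226), and the other 3, named after their values were seen, were Sema3a (0.99), Plxnd1 (0.30) and Plxna1 (0.22). All 5 had an adjusted p of 0.553, and without replicate 2 Sema3a, Sema3f and Plxna3 passed with adjusted p of 0.00534, 0.00461 and 0.00496, in a fit where 7.5% of all genes passed.

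In the oxygen-sensing list 6 of 8 genes were tested, with 1 higher and 0 lower at an unadjusted p under 0.05. Over all genes 4.63% were higher and 4.29% lower at that level, which also applies to the HIF target genes below. Epas1, which encodes the HIF-2 alpha subunit, stood at 6.98, 6.35 and 7.92 CPM in TBHP and at 11.1, 7.32 and 12.5 CPM in TBHP+FGF21 (log2 fold change 0.54, unadjusted p = 0.0163, adjusted p = 0.553, edgeR). Hif1a was the next by p (-0.13, unadjusted p = 0.165). Among 13 tested HIF target genes other than Vegfa 0 were higher and 1 was lower, Higd1a (-0.50, unadjusted p = 0.0385), with Ndrg1 next (0.26, unadjusted p = 0.0715). Estimates were positive for 7 of the 13 and negative for 6, with a median of 0.00. Without replicate 2, Epas1 (0.75), Ndrg1 (0.42) and Higd1a (-0.74) passed with adjusted p of 0.00944, 0.0154 and 0.0145 in edgeR, against 7.5% of all genes.

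Of 22 other angiogenic and antiangiogenic factors 16 were tested, of which 2 were higher and 1 lower at an unadjusted p under 0.05. Timp3, a metalloproteinase inhibitor that also blocks VEGF binding to its receptor Kdr, stood at 24.7, 28.2 and 29.6 CPM in TBHP and at 20.8, 24.2 and 12.1 CPM in TBHP+FGF21. It was lower without overlap, as were 5% of all genes. Its log2 fold change was -0.54 (unadjusted p = 0.0199, adjusted p = 0.553, edgeR). The chemokine gene Cxcl12 had 0.31 (unadjusted p = 0.0212), and Col18a1, the source of endostatin and named after its value was seen, had 0.28 (unadjusted p = 0.0252). The shares over all genes were 4.63% higher and 4.29% lower. Without replicate 2, 18 were tested and 4 passed an adjusted p of 0.05, against 7.5% of all genes: Timp3 with an adjusted p of 0.0156, Cxcl12 with 0.0236, Col18a1 with 0.0432 and Angpt2. Angpt2 had 1, 5 and 4 counts in TBHP and 10, 5 and 30 in TBHP+FGF21, was named after its values were seen, did not pass the filter with all 6 libraries and passed it in that fit through the libraries where it was high, so its call is no evidence of a difference.

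**Figure D4:**
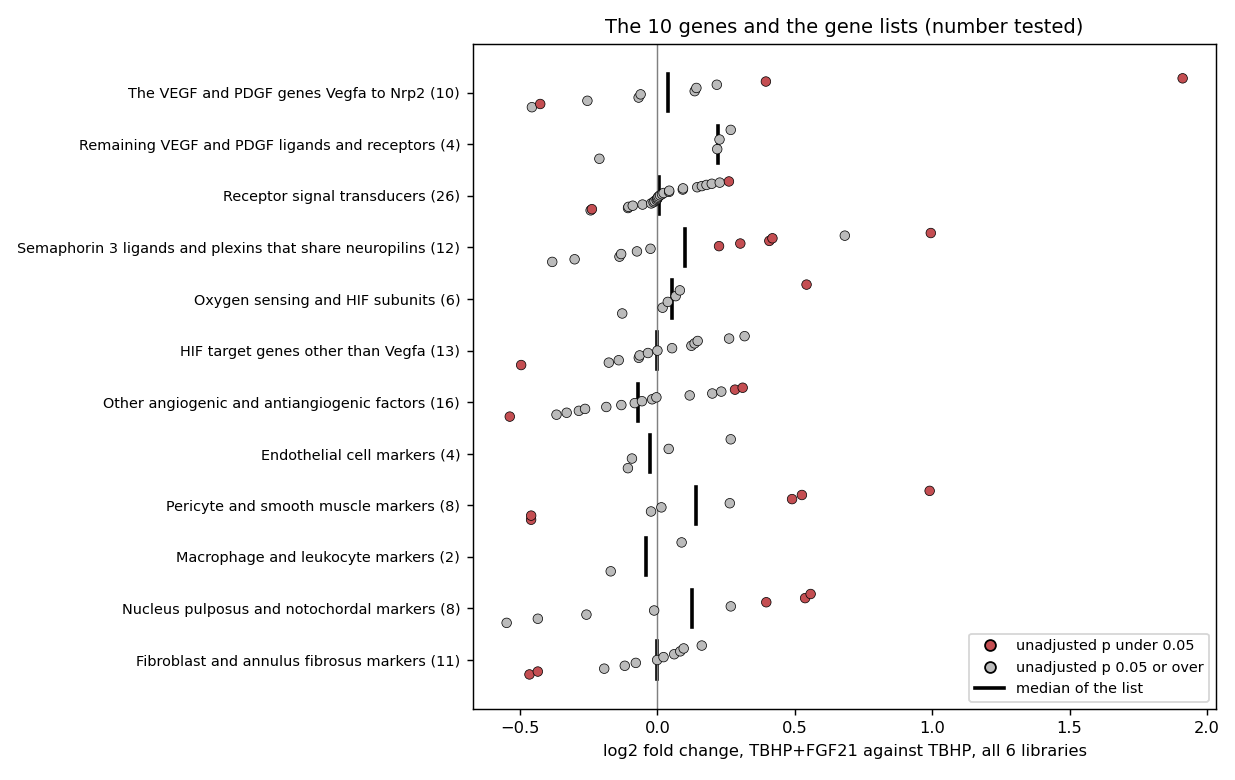
Log2 fold change with all 6 libraries (x axis) of each tested gene, 1 row per gene list with the number tested in brackets and a bar at the list's median. Red points have an unadjusted p under 0.05; no point has an adjusted p under 0.05, and Vegfd is the point at 1.91.

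In the lists of disc, mural and fibroblast markers 0 genes passed an adjusted p of 0.05 with all 6 libraries in edgeR. Without replicate 2, 4 of 8 tested nucleus pulposus and notochordal markers passed higher and 0 lower. Of 8 pericyte and smooth muscle markers 4 passed higher and 2 lower, and of 11 fibroblast and annulus fibrosus markers 0 higher and 2 lower. In that fit 3.78% of all genes passed higher and 3.72% lower. The counts below are with all 6 libraries at an unadjusted p under 0.05, against 4.63% higher and 4.29% lower over all genes. Of 15 nucleus pulposus and notochordal markers 8 were tested, with 3 higher and 0 lower at an unadjusted p under 0.05. Their summed level was 2808 to 3263 CPM in TBHP and 3930, 3181 and 4856 CPM in TBHP+FGF21 replicates 1, 2 and 3. Its most abundant genes Acan, Pax1 and Foxf1 had log2 fold changes of 0.40, 0.54 and 0.27, and Sox9 had 0.56. Estimates were positive for 4 of the 8 and negative for 4, namely Krt8 (-0.43), Cd24 (-0.55), Col2a1 (-0.26) and Cdh2 (-0.01). Sox9 and these 4 were named after their values were seen. Of 10 pericyte and smooth muscle markers 8 were tested, with 3 higher (Notch3 at 0.99, Kcnj8 at 0.53 and Abcc9 at 0.49) and 2 lower (Mcam and Acta2, both at -0.46). Notch3, Kcnj8, Abcc9 and Mcam were named after their values were seen. Their summed level, mostly that of Acta2 and Cspg4, was 2704 to 2972 CPM in TBHP and 2382, 2909 and 2359 CPM in TBHP+FGF21, with Cspg4 at a log2 fold change of 0.01 and Des at 0.26, and Rgs5 had 0 counts in all TBHP libraries and 5, 1 and 0 in TBHP+FGF21.

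All 11 fibroblast and annulus fibrosus markers were tested, with 0 higher and 2 lower, Postn (-0.43) and Tagln (-0.47), both named after their values were seen. The most abundant, Col1a1, Fn1 and Col3a1, had -0.19, 0.02 and 0.00, and the summed level was 75990 to 83650 CPM in TBHP and 80790, 82580 and 62590 CPM in TBHP+FGF21. Of 12 endothelial markers 4 were tested, with 0 changed in either direction at that level in edgeR and a summed level of 43.6 to 53.6 CPM in TBHP and 48.4 to 53.8 CPM in TBHP+FGF21. The level came mostly from Egfl7 (28.3 to 40.1 CPM), Cldn5 and Flt1. Of 9 macrophage and leukocyte markers 2 were tested with 0 changed, and the summed level was 32.2 to 38.2 CPM in TBHP and 26.8 to 33.0 CPM in TBHP+FGF21, mostly from Cd14, then Cd68 and Csf1r. The part that a shift in cell state or composition had in the differences of Vegfd, Pdgfa and Pdgfra was not tested.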

How the data were processed

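Poly(A) RNA of 3 TBHP and 3 TBHP+FGF21 cultures was sequenced. The authors deposited raw gene counts per library and a combined table of counts by gene symbol, handled as estimated counts because 22 rows are not whole; these were rounded up. The submitters' processing notes name STAR and featureCounts. Versions and genome build are not given in the sources used here. Groups came from the labels, which call the libraries of a group biological replicates without naming animals, so p-values measure the spread between these libraries. In the per-library files unmapped reads were 1.24% to 1.40%, multimapped 6.27% to 7.03%, without a feature 9.13% to 10.4% and ambiguous 1.72% to 2.09% of reads.

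Counts were filtered (filterByExpr, minimum count 10), TMM scaled and tested with edgeR 4.0.16 (quasi-likelihood, R 4.3.3, Benjamini-Hochberg over 11426 genes). DESeq2 1.42.0, limma 3.58.1 voom, other scalings, filters, files, strands, a replicate block and single removals were alternatives. The test was checked on simulated counts. Ratios and levels were tested by two-sided exact permutation. Deviations from the group mean had correlations of -0.12, 0.21 and 0.15 between replicates with the same number. Between those with different numbers they ranged from -0.26 to 0.18. These overlapping values do not decide whether the numbers pair libraries. The labels do not state a pairing, so the main fit used none.

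The genes, lists and naming rule (all 10 genes, the remaining ligands and receptors, the 2 genes with the smallest p per pathway list, the 3 most abundant per marker list and markers at 0, and 3 genes most like the gene with the smallest p) were chosen with earlier results of these data known. Listed genes with no row of that symbol, such as Pecam1 and Egln1, are not analysed here, and 1 gene of the signal transducer list is not reported here.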

Additional observations from a re-analysis of the deposited data

How the results depend on the processing

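Over the alternatives tried, 155 of the single-gene estimates kept their direction and their side of an adjusted p of 0.05, 8 kept direction and newly passed, and 6 reversed. The reversals were Vegfb (0.0183 on the reads of one strand; -0.146 to 0.0451 with 1 library left out, the highest without TBHP+FGF21 replicate 1), Vegfc (-0.064 on one strand) and Nrp1 (0.27 on one strand; -0.749 to 0.0474 with 1 library left out, the highest without TBHP+FGF21 replicate 3; 0.43 with replicate 1 as the only TBHP+FGF21 library), and their cause was not tested. Genes with an adjusted p under 0.05 numbered 4 by DESeq2, 5 with no filter on low counts (Cd83, Lgr5, Nr4a1, Sik1 and Sirt1) and 0 by limma-voom, on the per-library unstranded counts and on either strand, where 996, 1082, 956 and 1049 had an unadjusted p under 0.05. With TBHP+FGF21 replicate 1 alone, the library labelled FGF21, they numbered 325 (1669 unadjusted), including 3 of the 10 genes: Vegfd (2.03, adjusted p = 3.95e-05), Pdgfa (-0.73, 0.00189) and Pdgfra (0.47, 0.0471). Of the 10 genes DESeq2 called 1, Vegfd. The replicate block gave 2 of 11426 genes (Nr4a1 and Sirt1) and 1599 of 11426 unadjusted, with 0 and 4 of the 10 genes.

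With 1 library left out, genes with an adjusted p under 0.05 ranged from 0 to 867 and unadjusted from 337 to 2732, with 510 without TBHP replicate 1, 337 without TBHP replicate 2, 1771 without TBHP replicate 3, and 479, 2732 and 341 without TBHP+FGF21 replicates 1, 2 and 3. Of the 10 genes 0 to 4 were called adjusted and 1 to 5 unadjusted. The highest counts, 4 and 5, came without TBHP+FGF21 replicate 2, where 7.5% and 23.6% of all genes passed. The lowest unadjusted count, 1, came without TBHP replicate 1 (510 of 11559 genes) and without TBHP+FGF21 replicate 3 (341 of 11521 genes). The differences of the log2 ratios ranged from 0.07 to 0.37 for Pdgfra over Pdgfrb, -0.98 to -0.18 for Nrp1 over Nrp2, -0.10 to 0.15 for Vegfa over Vegfb and -1.24 to -0.60 for Pdgfa over Pdgfra. A filter of 50 counts in 3 libraries left Vegfd untested. Vegfd, Pgf and Nrp1 had the fewest counts of the 10 genes, 18 to 171 per library. The TBHP+FGF21 libraries of Vegfd, Pgf and Nrp1 differed by more than counting error.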
